A study of Cricetulus griseus with 24 samples.

Results

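The class I and class II histone deacetylases were followed in Chinese hamster ovary (CHO) cells. The members are the genes Hdac1 to Hdac10, taken by gene symbol from the deposited counts of 28037 genes, and all 10 are in that table. Symbols matched 9 of them. Hdac8 is listed there under its gene ID 100765184 alone and was matched by that ID. RNA-seq was done on A0, an antibody-producing clone of CHO DG44, on A1, the progeny of A0 amplified with methotrexate (MTX), and on CHO-S, a separate line. Each line was sampled at exponential and at stationary phase. A0 and A1 share the DG44 background and the antibody plasmids, and each is 1 clone, so a difference between them is a difference between 2 clones. CHO-S differs from both in its origin and in that its labels name no antibody, and these cannot be told apart. The titles of the CHO-S libraries carry the prefix NDST, which the labels do not explain, and the libraries are called CHO-S here from their cell line label alone.

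Histone deacetylases of classes I and II are zinc-dependent enzymes that remove acetyl groups from lysines, and their work on histone tails is generally tied to repressed chromatin. The class I enzymes Hdac1 and Hdac2 are close paralogs that act as the catalytic pair of the Sin3, NuRD and CoREST complexes, Hdac3 works with co-repressors such as Ncor1, and Hdac8 acts largely outside such complexes. The class IIa enzymes Hdac4, Hdac5, Hdac7 and Hdac9 have little catalytic activity of their own on histones, bind MEF2 transcription factors, and leave the nucleus once kinases have marked them for Ywha adaptor proteins. The class IIb enzyme Hdac6 deacetylates tubulin in the cytoplasm, and Hdac10 deacetylates polyamines. Inhibitors of these enzymes, such as sodium butyrate, have long been added to CHO cultures to raise recombinant protein yield.

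The members moved in different directions. Hdac4 was the member that rose at stationary phase in all 3 lines, with a call in CHO-S that was lost in some fits. Hdac1 and Hdac2 fell in A0 and in A1, and the Hdac2 call in A1 was lost with all 6 groups in 1 fit. Hdac1 and Hdac7 were higher in A1 than in A0 at both phases, and Hdac9 was lower. The Hdac7 call at exponential phase was lost in some fits. Hdac3, Hdac5, Hdac6, Hdac7 and the low gene Hdac8 were lower in both DG44 clones than in CHO-S at exponential phase. The Hdac7 call in A1 was lost with all 6 groups in 1 fit. Hdac9 was almost without reads in CHO-S, and Hdac10 was almost without reads in every line.

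The table holds 24 libraries from 20 cultures. A0 has 8 exponential libraries, which were summed to 4 cultures by culture number, and 4 stationary libraries, and A1 and CHO-S have 3 libraries at each phase. The labels do not say how separate the cultures were, although the study's methods describe triplicate flasks, so p-values measure the spread between these samples. Counts on genes were between 6532373 and 14652646 per library, except for CHO-S stationary library 1, which had 1038026. In that library 32.8% of the reads fell outside genes, against 11.9% to 18.4% in the others, and its log2 levels correlated with its replicates at r = 0.886 and 0.889, where every other pair of libraries within a group reached at least 0.966. The members' CHO-S results at stationary phase are therefore given with it and without it. The second exponential library of A0 culture 1, marked RLT in the labels, also stood apart from its first library. Hdac1 was at 395 against 274 CPM (counts scaled to library size) and Hdac3 at 73.1 against 48.1 CPM. The RLT library of culture 2 was shifted the same way, at 299 against 253 CPM and 58.0 against 45.5 CPM. Only cultures 1 and 2 have RLT libraries, and cultures 3 and 4 have duplicates. Where these pairs are set apart below, culture and library type cannot be told apart at exponential phase. The fibroblast-type marker Vim was between 799 and 1412 CPM in all group means, and the leukocyte marker Ptprc and the hepatocyte marker Alb were at 0.425 CPM or less in every group mean. The collagen gene Col4a1 was listed as a fibroblast-type marker too, and it did not follow Vim. It averaged 3640 CPM in CHO-S at exponential phase. In A1 it was at 45.2 CPM in exponential culture 1 against 0.305 and 0.341 CPM in the other exponential cultures. Actb, also listed, is not reported here. Leaving out A1 culture 1 ended the calls of Hdac7 between A1 and A0 at exponential phase and of Hdac6 between the A1 phases, with the values given below. The Hdac6 call was lost without culture 3 too. Calls over all genes between A1 and A0 at exponential phase fell from 5163 to 3422 without A1 culture 1. Without A1 culture 2 or 3 they fell to 3403 and 3160. The part of the Col4a1 reads was not tested.

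Hdac10 had 1 count in all 24 libraries together, in an exponential CHO-S culture. In the other groups it had 0 counts, which allows a level of up to 0.0303 CPM over the A0 exponential cultures and up to 0.136 CPM over the CHO-S stationary cultures (3 counts over the group, counting error only). It was not tested in any comparison. The class IV enzyme Hdac11, looked at beside the members, had 0 counts. The remaining 9 members passed the filter on low counts in every comparison, except that Hdac9 was not tested between the CHO-S phases. HTSeq-count, as used by the authors, leaves out reads that align to several places, so any near-identical copy of a member would take reads from it.

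**Figure D1:**
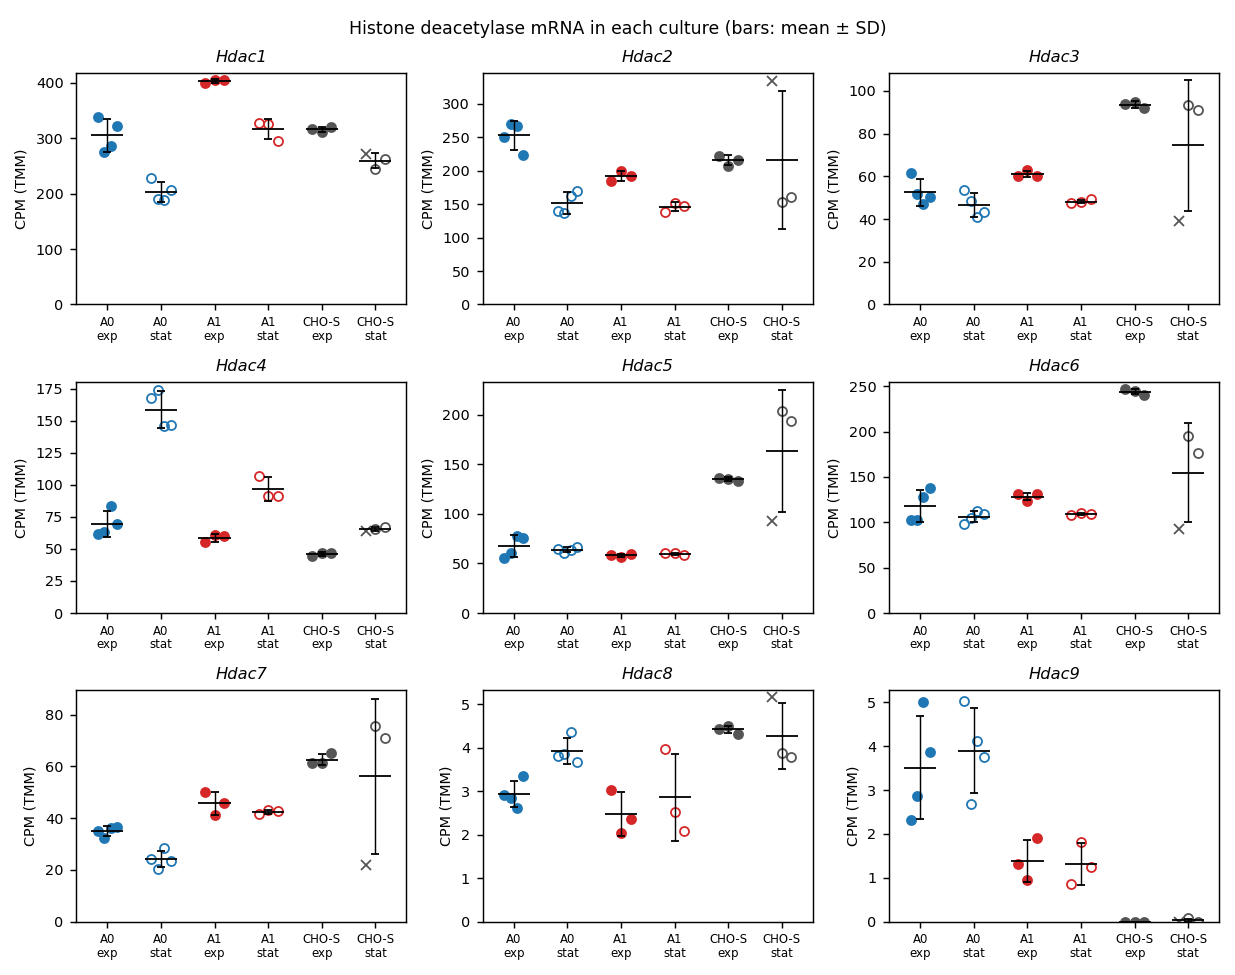
TMM-normalized CPM of Hdac1 to Hdac9 (y axes, each from 0) in every culture of A0 (blue), A1 (red) and CHO-S (grey), with filled points for exponential phase, open points for stationary phase and a cross for CHO-S stationary library 1. Lines and bars are the mean and SD. Hdac4 lies higher at stationary phase in each line, and the cross lies away from its replicates for Hdac2, Hdac3, Hdac5, Hdac6 and Hdac7.

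Levels are given as CPM after TMM normalization over all 20 cultures and are compared between cultures of a gene, never between genes, since transcript lengths were not used. Hdac1 was at 338, 275, 285 and 322 CPM in the exponential A0 cultures 1 to 4 and at 227, 190, 188 and 206 CPM in the stationary ones. In A1 it was at 399, 404 and 405 CPM at exponential phase and at 328, 326 and 296 CPM at stationary phase. CHO-S had 317, 311 and 320 CPM at exponential and 271, 244 and 263 CPM at stationary phase. Exponential A1 cultures held the highest Hdac1 levels and stationary A0 cultures the lowest, with no overlap between these groups and any other. Stationary A1, exponential CHO-S and exponential A0 overlapped in the middle of the order, with means of 316, 316 and 305 CPM.

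Hdac2, the partner of Hdac1, ran in a different order. It was at 251, 270, 266 and 223 CPM in exponential and at 140, 136, 162 and 169 CPM in stationary A0 cultures. A1 had 184, 200 and 192 CPM at exponential and 139, 151 and 148 CPM at stationary phase. CHO-S had 222, 207 and 216 CPM at exponential phase and 334, 153 and 160 CPM at stationary phase, where the value of 334 is that of library 1. Exponential A0 had the highest mean, and the stationary cultures of A0 and A1 overlapped at the bottom. Within a culture, reads of Hdac1 outnumbered those of Hdac2 by 2.02 to 2.17 times in exponential and by 2.00 to 2.36 times in stationary A1, and by 1.02 to 1.44 and 1.16 to 1.63 times in A0, so the A1 and A0 cultures did not overlap at either phase. CHO-S lay between them at exponential phase, at 1.43 to 1.5, overlapping the top of the A0 range, and at stationary phase its libraries 2 and 3 were at 1.60 and 1.64 and library 1 at 0.812. This ratio was chosen after its values were seen and is a description.

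Hdac3, the enzyme of the Ncor complexes, varied less within the DG44 clones. Its level was 61.4, 51.5, 47.0 and 50.1 CPM in exponential A0 and 53.6, 48.4, 41.0 and 43.3 CPM in stationary A0, where the phases overlapped. A1 had 60.1, 62.7 and 60.1 CPM at exponential and 47.5, 47.8 and 49.2 CPM at stationary phase. CHO-S had 93.7, 94.9 and 91.9 CPM at exponential phase, above every A0 and A1 culture, and 39.2, 93.1 and 90.9 CPM at stationary phase, the first from library 1. Hdac8 was measured at a low level, between 2.05 and 5.16 CPM over all 20 cultures, and from 5 to 62 counts per library. Its group means ran from 2.48 CPM in exponential A1 to 4.42 CPM in exponential CHO-S.

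Among the class IIa genes, Hdac4 had the widest range between phases. Exponential A0 cultures 1 to 4 were at 61.6, 62.9, 83.6 and 69.5 CPM, and stationary ones at 168, 174, 146 and 147 CPM. A1 was at 55.2, 61.1 and 59.9 CPM at exponential and at 107, 91.1 and 91.5 CPM at stationary phase. CHO-S was at 44.1, 47.1 and 46.7 CPM at exponential and at 64.0, 65.5 and 67.3 CPM at stationary phase. Phases did not overlap in any line, stationary A0 stood above every other group, and exponential CHO-S stood below every other group. CHO-S stationary library 1, at 64.0 CPM, lay close to its replicates for this gene.

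Hdac5 was at 55.1, 60.7, 77.9 and 75.7 CPM in exponential A0, where cultures 3 and 4 lay above cultures 1 and 2, and at 64.4, 60.8, 63.8 and 66.6 CPM in stationary A0. A1 was between 56.7 and 59.5 CPM at exponential and between 58.0 and 60.7 CPM at stationary phase. CHO-S was at 137, 135 and 133 CPM at exponential phase and at 92.9, 204 and 193 CPM at stationary phase, all above A0 and A1. Read against each other within a culture, Hdac4 reads were 0.918 to 1.12 times those of Hdac5 in exponential A0 and 2.20 to 2.86 times in stationary A0. The ratio was 0.941 to 1.08 in exponential and 1.52 to 1.76 in stationary A1, and 0.323 to 0.352 in exponential CHO-S. In stationary CHO-S libraries 2 and 3 it was 0.321 and 0.348, about the exponential values, and in library 1 it was 0.689. The ratio did not overlap between stationary A0 and stationary A1, and it overlapped between them at exponential phase. This ratio, too, was chosen after its values were seen.

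**Figure D2:**
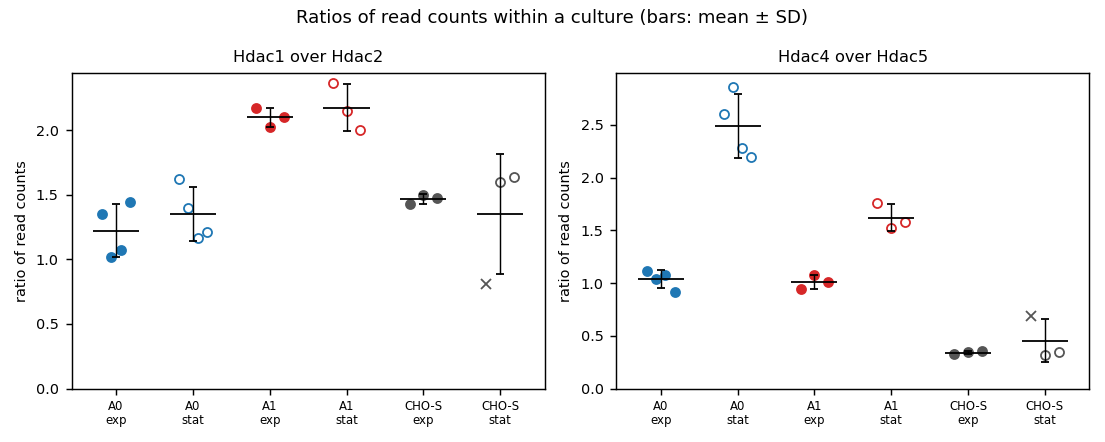
Ratio of read counts of Hdac1 to Hdac2 (left) and of Hdac4 to Hdac5 (right) in each culture, y axes from 0, with filled points for exponential and open points for stationary phase, a cross for CHO-S stationary library 1, and lines and bars for mean and SD. The Hdac1 to Hdac2 ratio is between 2.00 and 2.36 in A1 cultures and between 1.02 and 1.63 in A0 cultures, and the Hdac4 to Hdac5 ratio is highest in stationary A0, at 2.20 to 2.86.

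Hdac7 was at 34.8, 32.1, 36.2 and 36.4 CPM in exponential and at 24.2, 20.5, 28.5 and 23.5 CPM in stationary A0. In A1 it was at 50.1, 41.3 and 45.7 CPM at exponential and at 41.5, 43.0 and 42.9 CPM at stationary phase. CHO-S had 61.1, 61.5 and 65.0 CPM at exponential and 21.7, 75.7 and 71.1 CPM at stationary phase. A1 lay above A0 at each phase with no overlap, and CHO-S lay above both apart from library 1. Hdac9 was a low gene, at 2.31, 2.88, 5.0 and 3.86 CPM in exponential and 5.03, 2.69, 4.13 and 3.75 CPM in stationary A0. A1 had 1.31, 0.939 and 1.91 CPM at exponential and 0.853, 1.81 and 1.25 CPM at stationary phase, all below every A0 culture. In CHO-S it had 0 counts at exponential phase and 1 count at stationary phase.

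Hdac6, the tubulin deacetylase of class IIb, was at 103, 103, 128 and 138 CPM in exponential and at 97.8, 105, 113 and 109 CPM in stationary A0. It was between 123 and 131 CPM in exponential A1 and between 108 and 110 CPM in stationary A1. CHO-S had 247, 245 and 241 CPM at exponential phase and 92.9, 195 and 177 CPM at stationary phase. Exponential CHO-S was above all A0 and A1 cultures, and A0 cultures 3 and 4 were again above cultures 1 and 2 at exponential phase.

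The comparison of A1 with A0 asks how the MTX-amplified progeny differs from its parent. At exponential phase Hdac1 and Hdac7 were higher in A1, and Hdac2 and Hdac9 were lower. These 4 of the 9 members tested passed an adjusted p of 0.05 (edgeR's quasi-likelihood test, Benjamini-Hochberg over all 19946 genes tested), against 25.9% of all genes tested. Higher calls made up 12% and lower calls 13.8% of all genes. The log2 fold change was 0.40 ± 0.09 (SE) for Hdac1 (adjusted p = 0.00542), -0.40 ± 0.09 for Hdac2 (adjusted p = 0.00510), 0.39 ± 0.10 for Hdac7 (adjusted p = 0.00888) and -1.32 ± 0.31 for Hdac9 (adjusted p = 0.00584). Hdac3 did not pass, at 0.21 ± 0.10 (adjusted p = 0.146), and neither did Hdac8, at -0.24 ± 0.21 (adjusted p = 0.446), with a 95% interval from -0.69 to 0.21. Hdac4, Hdac5 and Hdac6 had values of -0.24, -0.21 and 0.12. A1 and A0 cultures did not overlap for 5 members, the 4 called and Hdac4, against 34.4% of all genes. The median log2 fold change of the 9 members was -0.21, beside -0.04 over all genes tested.

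The exponential values depended on the cultures used. Without A1 culture 1, the culture with Col4a1 reads, Hdac7 was at 0.31 (adjusted p = 0.0767) and no longer passed. Then 3 members were called, and calls over all genes went from 5163 to 3422. With all 6 groups in 1 fit Hdac2 (adjusted p = 0.103) and Hdac7 (adjusted p = 0.110) did not pass. Set against A0 cultures 3 and 4 alone, A1 had 7 members called, with Hdac3 at 0.32, Hdac4 at -0.39 and Hdac5 at -0.40 added, and set against cultures 1 and 2 alone it had 5, with Hdac6 at 0.31 added. With only the first libraries of A0, which leaves out the RLT libraries and the duplicates, Hdac3 (0.32, adjusted p = 0.00874) and Hdac4 (-0.33, adjusted p = 0.0240) passed as well. The share of 25.9% of all genes is that of the fit on all cultures. The member counts of these other fits are therefore not read as results about the members.

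At stationary phase 4 of 9 members passed, against 33.7% of the genes tested, of which 16% were higher and 17.7% lower in A1. Hdac1 was higher in A1 by a log2 fold change of 0.63 ± 0.08 (adjusted p = 2.31e-05) and Hdac7 by 0.80 ± 0.11 (adjusted p = 4.98e-05). Hdac4 was lower, at -0.73 ± 0.09 (adjusted p = 3.04e-05), and so was Hdac9, at -1.51 ± 0.29 (adjusted p = 0.000999). Hdac2, which was lower in A1 at exponential phase, was at -0.07 ± 0.09 (adjusted p = 0.598) at stationary phase. Hdac3 was at 0.04 with a 95% interval from -0.17 to 0.25, and Hdac6 was at 0.02 with an interval from -0.13 to 0.18. Hdac5 was at -0.11 and Hdac8 at -0.53 ± 0.23 (adjusted p = 0.0997). Cultures did not overlap for 5 members, the 4 called and Hdac5, against 39.9% of all genes. The members' median was -0.07, beside 0.00 over all genes to 2 decimals (-0.00207). Of 11 genes of DNA replication and mitosis, taken up again below, 8 were higher in A1 than in A0 at this phase and 0 lower. Their median was 0.54, where 16% of all genes were higher and 17.7% lower.

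**Figure D3:**
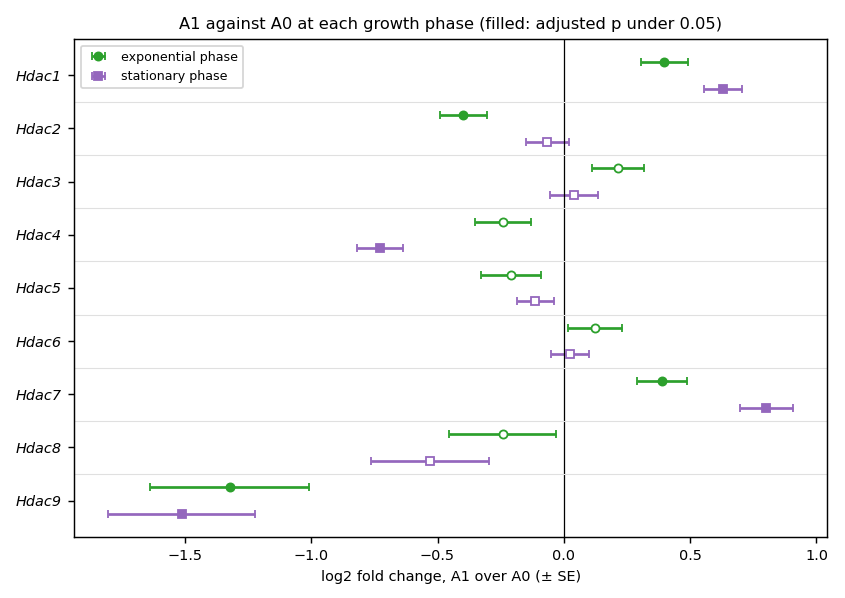
Log2 fold change of A1 over A0 (x axis) with SE bars for Hdac1 to Hdac9 at exponential phase (green circles) and stationary phase (purple squares), from edgeR's fits over all genes, with filled symbols where the adjusted p was under 0.05. Hdac1 and Hdac7 lie to the right and Hdac9 to the left of 0 at both phases, Hdac2 is filled at exponential phase only and Hdac4 at stationary phase only.

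The phase comparison asks how each line changes from exponential growth to stationary phase. In A0, Hdac4 rose and Hdac1, Hdac2 and Hdac7 fell. These 4 of 9 members compare with 37.7% of all genes tested, 17.7% higher and 20.1% lower at stationary phase. Hdac4 rose by a log2 fold change of 1.18 ± 0.11 (adjusted p = 6.59e-07), a fold of 2.27. Hdac1 was at -0.60 ± 0.10 (adjusted p = 0.000170), Hdac2 at -0.75 ± 0.10 (adjusted p = 2.51e-05) and Hdac7 at -0.54 ± 0.11 (adjusted p = 0.00104). Hdac8 was at 0.41 ± 0.18 and did not pass (adjusted p = 0.0809), although its stationary cultures all lay above its exponential ones. Hdac3, Hdac5, Hdac6 and Hdac9 were at -0.19, -0.09, -0.16 and 0.14 with adjusted p between 0.217 and 0.717. Phases did not overlap for 5 members, the 4 called and Hdac8, against 35.8% of all genes. The median over the members was -0.16, beside 0.00131 over all genes.

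In A1, 5 of 9 members passed, against 33.4% of all genes, 15.6% higher and 17.8% lower. Hdac4 rose by 0.73 ± 0.07 (adjusted p = 1.12e-09), a fold of 1.66. The class I genes Hdac1, Hdac2 and Hdac3 fell together, with log2 fold changes of -0.33 ± 0.05 (adjusted p = 1.20e-05), -0.37 ± 0.06 (adjusted p = 5.86e-06) and -0.32 ± 0.07 (adjusted p = 0.000397), and Hdac6 fell by 0.22 ± 0.06 (adjusted p = 0.00448). The Hdac6 call was lost without culture 1 of both phases, the exponential one being the culture with Col4a1 reads (-0.20, adjusted p = 0.0525), and without culture 3 (-0.20, adjusted p = 0.0696). With all 6 groups in 1 fit Hdac2, Hdac3 and Hdac6 did not pass (adjusted p = 0.176, 0.202 and 0.407). Hdac5 was at 0.05 with a 95% interval from -0.09 to 0.19, and Hdac7 at -0.09 with an interval from -0.25 to 0.08. The low genes Hdac8 and Hdac9 were at 0.15 ± 0.26 and -0.01 ± 0.34, which leaves changes of a size seen for other members undetectable. The same 5 members were those whose phases did not overlap, against 43.1% of all genes. The median over the 9 tested was -0.09, beside 0.03 over all genes.

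In CHO-S with all libraries, Hdac4 rose by 0.52 ± 0.12 (adjusted p = 0.0330) and was the 1 of 8 members to pass, against 13.3% of all genes, with 6.81% higher and 6.48% lower. It did not pass with the replicate block (0.52, adjusted p = 0.169), nor without culture 2 (0.54, adjusted p = 0.421) or culture 3 (0.51, adjusted p = 0.422). Without stationary library 1, an alternative added after the data were seen, 6 of 8 members passed, against 47.7% of all genes, and genes called over the whole table went from 2308 to 8269. Hdac4 was then at 0.53 ± 0.07 (adjusted p = 2.62e-11), Hdac5 at 0.57 ± 0.05 (adjusted p = 1.86e-18) and Hdac7 at 0.24 ± 0.06 (adjusted p = 0.000517). Lower at stationary phase were Hdac1, at -0.32 ± 0.05 (adjusted p = 2.11e-09), Hdac2, at -0.46 ± 0.05 (adjusted p = 5.41e-14), and Hdac6, at -0.38 ± 0.05 (adjusted p = 2.58e-11). With library 1 these values were -0.28 for Hdac1, -0.01 for Hdac2, 0.30 for Hdac5, -0.63 for Hdac6 and -0.06 for Hdac7, none past the threshold. Hdac3 was at -0.02 ± 0.06 without the library and at -0.27 ± 0.27 with it. With all libraries the phases did not overlap for 3 of 8 members, Hdac1, Hdac4 and Hdac6, against 36.4% of all genes, and the members' median was -0.12, beside 0.02 over all genes.

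**Figure D4:**
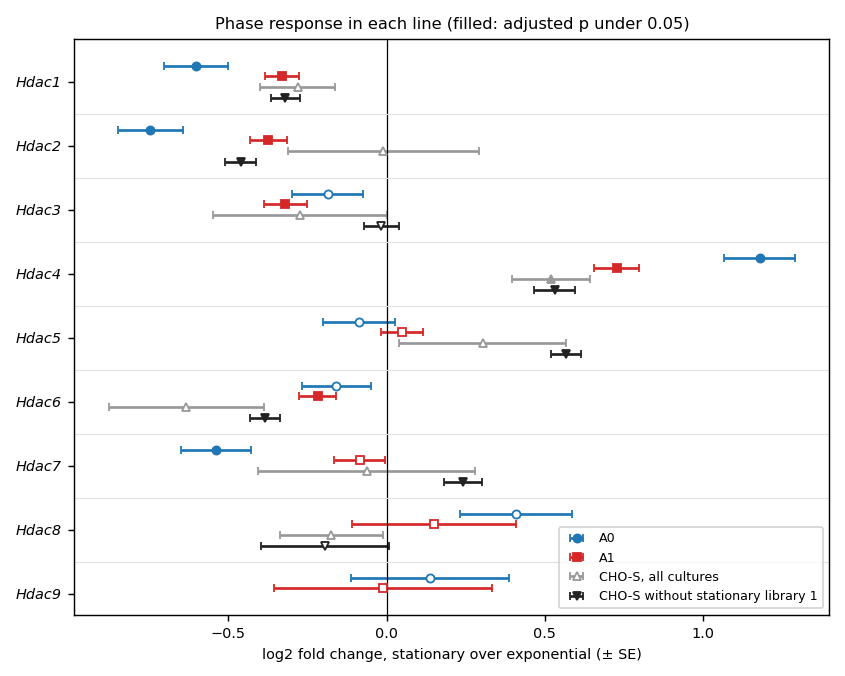
Log2 fold change of stationary over exponential phase (x axis) with SE bars for Hdac1 to Hdac9 in A0 (blue), A1 (red), CHO-S with all cultures (light grey) and CHO-S without stationary library 1 (black), with filled symbols where the adjusted p was under 0.05. Hdac9 was not tested in CHO-S. Hdac4 lies to the right of 0 in every fit, and Hdac5 is filled only in CHO-S without library 1.

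Growth genes moved with phase as well. Of 11 genes of DNA replication and mitosis, 10 fell at stationary phase in A0 (median log2 fold change -0.96, with 20.1% of all genes lower), 10 in A1 (median -0.47, 17.8%) and 6 in CHO-S with all libraries (median -0.71, 6.48%). Without CHO-S stationary library 1, 11 fell in CHO-S (median -0.82), where 24.7% of all genes were lower. The proliferation marker Mki67 was at -1.49 ± 0.21 in A0 and at -0.43 ± 0.05 in A1, and it differed between them by 1.02 ± 0.26. Their part in the changes of the deacetylases was not tested. In RNA from whole cultures, a smaller share of cells with a transcript and less of it per cell cannot be told apart.

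Whether the lines differ in their phase response was tested as an interaction. Between A1 and A0 only Hdac4 passed, with a response smaller in A1 by 0.49 on the log2 scale (-0.49 ± 0.15, adjusted p = 0.0408), so 1 of 9 members was called against 8.94% of all genes, with 5.04% higher and 3.9% lower. Hdac7 was next, at 0.41 ± 0.15 (adjusted p = 0.0806), then Hdac2 at 0.33 ± 0.13 (adjusted p = 0.111) and Hdac1 at 0.23 ± 0.13 (adjusted p = 0.297). With the culture number as a replicate block, Hdac2 (0.33, adjusted p = 0.0380) and Hdac7 (0.43, adjusted p = 0.0247) passed too. The Hdac4 call depended on the cultures and on the fit used. With all 6 groups in 1 fit the difference was -0.48 (adjusted p = 0.0845). Fitted on A0 cultures 1 and 2, the difference was -0.76 ± 0.11 (adjusted p = 3.44e-05). Cultures 3 and 4 gave -0.22 ± 0.13 (adjusted p = 0.337), and the first A0 libraries gave -0.40 ± 0.14 (adjusted p = 0.0717). It also missed the threshold without A0 culture 1 (-0.41), A0 culture 2 (-0.39), A1 culture 2 (-0.38) or A1 culture 3 (-0.44). Calls over all genes fell as well, from 1873 to 1118 without A0 culture 2, 570 without A1 culture 2 and 741 without A1 culture 3. For 6 of the 11 growth genes the response of A1 minus that of A0 was above 0 and passed, against 5.04% of all genes. The median over the list was 0.62. The list fell with phase in both lines, with medians of -0.96 in A0 and -0.47 in A1, so it fell less in A1. The part of these genes in the Hdac4 difference was not tested.

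Against CHO-S, the Hdac4 response of A0 was larger by 0.65 ± 0.18 (adjusted p = 0.0276), 1 of 8 members, against 10.3% of all genes, with 3.78% higher and 6.57% lower. Hdac9, with 1 count in CHO-S, is not read here. Without CHO-S stationary library 1 it was 0.69 ± 0.16 (adjusted p = 0.00354), and Hdac5 (-0.60 ± 0.15, adjusted p = 0.00741) and Hdac7 (-0.73 ± 0.15, adjusted p = 0.00121) passed too, against 17.2% of all genes. With A0 cultures 3 and 4 alone Hdac4 was at 0.41 ± 0.17 and did not pass (adjusted p = 0.233). It also missed the threshold without CHO-S culture 2 (0.64, adjusted p = 0.115) or 3 (0.65, adjusted p = 0.110), and without A0 culture 1 (0.57, adjusted p = 0.0942) or 2 (0.60, adjusted p = 0.0919). The response of A1 differed from that of CHO-S for 0 members in edgeR and 0 in DESeq2, with 0 at an unadjusted p under 0.05 in either, against 7.6% of all genes, with 3.83% higher and 3.77% lower. Without the library, 3 members passed, Hdac3 at -0.32 ± 0.09 (adjusted p = 0.00526), Hdac5 at -0.54 ± 0.09 (adjusted p = 8.32e-07) and Hdac7 at -0.34 ± 0.10 (adjusted p = 0.00827), against 25.4% of all genes. Hdac4 was then at 0.17 ± 0.10 (adjusted p = 0.226).

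The levels in CHO-S place the DG44 clones against another CHO line. Hdac9 had at most 1 count in CHO-S and passed the filter on low counts through A0 or A1 alone, so it is left out of the counts of members, medians and overlaps against CHO-S and given by its bound. At exponential phase 7 of the other 8 members differed between A0 and CHO-S, against 49.5% of all genes, 27.6% higher and 21.9% lower in A0. Hdac3, Hdac5, Hdac6, Hdac7 and Hdac8 were lower in A0, with log2 fold changes of -0.82 ± 0.10, -0.99 ± 0.11, -1.04 ± 0.10, -0.83 ± 0.09 and -0.58 ± 0.17 (adjusted p from 1.23e-06 to 0.0103). Hdac2 was higher at 0.24 ± 0.09 (adjusted p = 0.0356) and Hdac4 at 0.60 ± 0.11 (adjusted p = 0.000331). The Hdac2 call was lost without CHO-S culture 1, 2 or 3 (adjusted p = 0.0871, 0.168 and 0.118), without A0 culture 2 or 3 (0.117 and 0.0652), with A0 cultures 3 and 4 alone (0.104) and with all 6 groups in 1 fit (0.292). Hdac1 was at -0.04 ± 0.09, with a 95% interval from -0.23 to 0.16. Hdac9 was at least 45.5-fold higher in A0, taking 3 counts over the CHO-S group as the floor for its 0 counts. Cultures did not overlap for the same 7 members, against 53.8% of all genes. The median over the 8 members was -0.70, beside 0.14 over all genes.

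In A1 each of the 8 members differed from CHO-S at exponential phase, against 57.2% of all genes, 30.0% higher and 27.1% lower. Hdac1 was higher at 0.34 ± 0.04 (adjusted p = 8.67e-08), and Hdac4 at 0.35 ± 0.06 (adjusted p = 3.46e-05). Hdac2 was lower at -0.17 ± 0.05 (adjusted p = 0.00243). Hdac3, Hdac5, Hdac6, Hdac7 and Hdac8 were at -0.62, -1.21, -0.93, -0.46 and -0.84, with adjusted p of 0.000769 or less. With all 6 groups in 1 fit Hdac2 (adjusted p = 0.515) and Hdac7 (adjusted p = 0.0539) did not pass. Hdac9 was at least 18.3-fold higher in A1. Cultures did not overlap for these 8 members, against 61.9% of all genes, and their median was -0.54, beside 0.05 over all genes. A0 and A1 were set against the same CHO-S cultures, so the comparisons are not independent of each other.

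**Figure D5:**
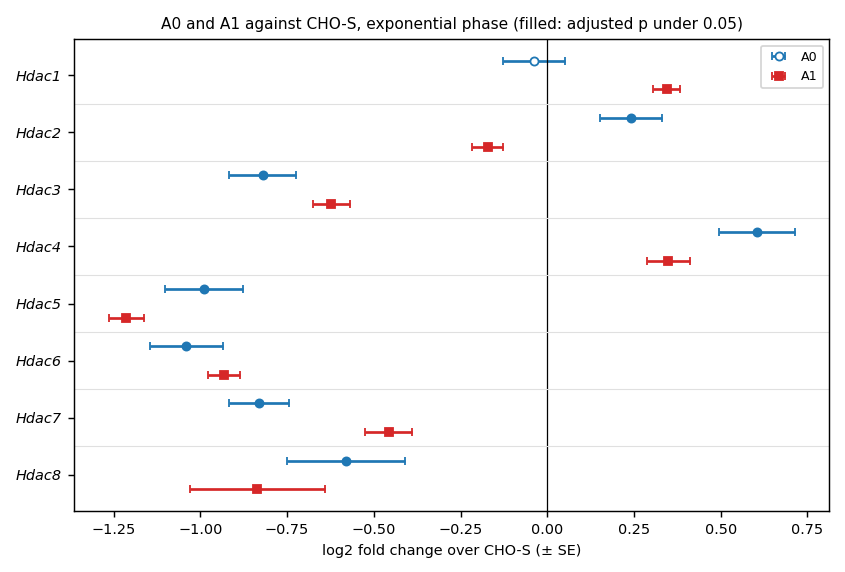
Log2 fold change over CHO-S at exponential phase (x axis) with SE bars for Hdac1 to Hdac8 in A0 (blue circles) and A1 (red squares), with filled symbols where the adjusted p was under 0.05. Hdac3, Hdac5, Hdac6, Hdac7 and Hdac8 lie to the left of 0 in both clones and Hdac4 to the right, and Hdac2 lies to the right in A0 and to the left in A1, with calls that were lost in some fits. Hdac9 is left out because CHO-S had 0 counts.

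At stationary phase 4 of 8 members passed between A0 and CHO-S, against 40.0% of all genes, with 20.7% higher and 19.3% lower in A0. Hdac4 was higher in A0 at 1.25 ± 0.15 (adjusted p = 9.86e-05), and Hdac3, Hdac5 and Hdac7 were lower at -0.75 ± 0.25 (adjusted p = 0.0329), -1.40 ± 0.23 (adjusted p = 0.000791) and -1.33 ± 0.29 (adjusted p = 0.00473). The Hdac3 call was lost without any single A0 culture (adjusted p from 0.0544 to 0.0960), without CHO-S culture 2 or 3 (0.208 and 0.141), with either A0 pair (0.253 and 0.121) and with the replicate block (0.174), and the Hdac7 call with A0 cultures 1 and 2 (0.0624) or 3 and 4 (0.110). Hdac9 had 189 counts in A0 against 1 in CHO-S, a ratio of normalized counts of 85.2 (exact 95% interval 15.1 to 3381, counting error only). Without CHO-S replicate 1, 6 of 8 members passed, against 51.8% of all genes, with Hdac1 at -0.30 ± 0.09 and Hdac6 at -0.79 ± 0.09 added. Cultures did not overlap for 3 of 8 members with all libraries, Hdac1, Hdac4 and Hdac5, against 45.1% of all genes.

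Between A1 and CHO-S at stationary phase 2 of 8 members passed, against 34.8% of all genes, with 18.2% higher and 16.6% lower in A1. Hdac4 was higher in A1 at 0.53 ± 0.15 (adjusted p = 0.0224), and Hdac5 was lower at -1.50 ± 0.27 (adjusted p = 0.00325). The Hdac4 call was lost without A1 culture 1, 2 or 3 (adjusted p = 0.0838, 0.0638 and 0.0722), without CHO-S culture 2 or 3 (0.0834 and 0.0828) and with the replicate block (0.0800). Hdac9 had 44 counts against 1, a ratio of 30.5 (exact 95% interval 5.19 to 1230). Without CHO-S replicate 1, 6 of 8 members passed, against 57.4% of all genes, with Hdac1 at 0.30 ± 0.07, Hdac3 at -0.96 ± 0.08, Hdac6 at -0.80 ± 0.07 and Hdac7 at -0.82 ± 0.08 added. Hdac2 (-0.12 ± 0.07) and Hdac8 (-0.54 ± 0.26) did not pass. Cultures did not overlap for 4 of 8 members with all libraries, Hdac1, Hdac2, Hdac4 and Hdac5, against 48.8% of all genes.

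The subunits with which the class I enzymes work were looked up as a list of 20 genes of the Sin3, NuRD, CoREST and Ncor complexes, 19 of which were tested. At exponential phase 2 were higher and 4 lower in A1 than in A0 (median -0.04), where 12% of all genes were higher and 13.8% lower. Rbbp7, a histone-binding subunit, was at -0.38 ± 0.10, and Chd4, the NuRD ATPase, at 0.36 ± 0.10. At stationary phase 3 were higher and 1 lower (median 0.06), against 16% and 17.7% of all genes, with Sap30 of the Sin3 complex at 0.65 ± 0.16 and Chd4 at 0.44 ± 0.07. From exponential to stationary phase 10 fell and 2 rose in A0 (median -0.37, beside 0.00131 over all genes), where 20.1% of all genes fell and 17.7% rose. In A1 7 fell and 4 rose (median -0.11), against 17.8% and 15.6% of all genes. Rbbp7 fell in both, by 0.80 ± 0.11 in A0 and by 0.38 ± 0.06 in A1, while Ncor1, which binds and activates Hdac3, was at 0.15 ± 0.13 in A0 and rose by 0.41 ± 0.06 in A1. In CHO-S with all libraries 0 rose and 2 fell, against 6.81% and 6.48% of all genes, and without stationary library 1, 4 rose and 10 fell, against 23.1% and 24.7%. For the difference between the responses of A1 and A0, 0 of 19 passed in edgeR, with 5 at an unadjusted p under 0.05, and 1 passed in DESeq2, against 8.94% of all genes. Against CHO-S at exponential phase 5 were higher and 7 lower in A0 (27.6% and 21.9% of all genes), and 5 higher and 9 lower in A1 (30.0% and 27.1%), with Mta1 of NuRD at -1.33 ± 0.10 and -1.64 ± 0.05.

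The MEF2 factors, kinases and Ywha adaptors that act on the class IIa enzymes formed a second list of 20 genes, 18 of them tested. In A1 against A0, 2 were higher and 5 lower at exponential phase (median -0.04), against 12% and 13.8% of all genes. At stationary phase 7 were higher and 4 lower (median 0.07), against 16% and 17.7%. The calcium-dependent kinase gene Camk4 was far lower in A1, at -4.20 ± 0.38 at exponential and -4.02 ± 0.34 at stationary phase, and Camk1 was at -1.10 ± 0.10 and -0.82 ± 0.12. With phase, 8 fell and 2 rose in A0 (median -0.22), against 20.1% and 17.7% of all genes, and 5 fell and 3 rose in A1 (median -0.10), against 17.8% and 15.6%. Ywhah was the gene that fell most in each, at -1.27 ± 0.12 and -0.54 ± 0.06. The difference between these responses passed for Ywhah (0.69 ± 0.15) and Ywhab (0.37 ± 0.11) and for no other gene of the list, 2 of 18 against 8.94% of all genes. In CHO-S with all libraries 1 rose and 0 fell, against 6.81% and 6.48% of all genes, and without stationary library 1, 5 rose and 5 fell, against 23.1% and 24.7%. Against CHO-S at exponential phase 7 were higher and 4 lower in A0 (27.6% and 21.9% of all genes), and 7 higher and 5 lower in A1 (30.0% and 27.1%).

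Of the histone acetyltransferases, the enzymes that add the acetyl groups, 13 were listed and 12 tested. In A1 against A0, 3 were higher and 2 lower at exponential phase (median 0.09), against 12% and 13.8% of all genes. At stationary phase 6 were higher and 2 lower (median 0.22), against 16% and 17.7%. Kat7 was higher in A1 at both phases, at 0.69 ± 0.08 and 0.54 ± 0.08. With phase, 1 rose and 3 fell in A0, against 17.7% and 20.1% of all genes, and 2 rose and 4 fell in A1, against 15.6% and 17.8%. In CHO-S 0 rose and 1 fell with all libraries, against 6.81% and 6.48%, and 1 rose and 6 fell without stationary library 1, against 23.1% and 24.7%. Hat1, which acetylates new histones, had the largest fall in A0 and in A1, at -1.21 ± 0.14 and -0.56 ± 0.06, and it alone of the list differed between these responses (0.61 ± 0.18). Against CHO-S at exponential phase 4 were higher and 2 lower in A0 (27.6% and 21.9% of all genes), and 8 higher and 2 lower in A1 (30.0% and 27.1%).

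The genes whose log2 levels ran most like each member over the 20 cultures were picked by Pearson's r among 9006 genes of at least 5 CPM on average. These correlations share libraries and groups and are a description. For Hdac4 they were Gpat3 and Fyco1, each at r = 0.97. Hdac2 ran most like Tmx3 (r = 0.99) and Kpna3 (0.98), and Hdac1 most like Ythdf1 and Ywhab (both 0.94), the second a gene of the class IIa partner list. Hdac3 ran most like Btbd6 and Crip2 (both 0.98), Hdac5 like Igf2r and Mov10 (both 0.98), Hdac6 like Prcc and Ccdc120 (both 0.96), and Hdac7 like Adck2 (0.97) and Strc (0.95). The low genes gave Gnl3l and Slc25a25 for Hdac8 (both 0.85) and Cdh13 (0.98) and Brinp3 (0.97) for Hdac9.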

How the data were processed

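The authors aligned the reads of TruSeq Stranded mRNA libraries with STAR 2.5.4b to the Chinese hamster genome C_griseus_v1.0, counted them per gene with HTSeq 0.7.2 and deposited raw counts. The strand setting of the counting is not given in the sources used here, so antisense and overlapping genes are uncertain. The 5 summary lines of the counts, which hold 31.8% to 49.8% of the reads, were left out of library sizes and tests. Libraries of the same A0 exponential culture were summed.

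Each comparison was fitted on its own groups with edgeR 4.0.16 in R 4.3.3, with TMM normalization, the quasi-likelihood test (two-sided) and Benjamini-Hochberg adjustment over all genes tested, at a threshold of 0.05. Genes needed at least 1 count in at least 2 cultures of the fit and a variance above 0. The phase differences between lines were interaction terms over 4 groups. SEs are the log2 fold change over the root of F. Figures and tables were made with Python 3.11.15. The procedure was tested on simulated counts. Fitted folds of Hdac9 against CHO-S depend on a prior count and are not reported.

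The members, lists and comparisons were chosen with earlier results of these data known. At most 3 genes past the threshold, those with the largest change, were named per list and comparison, with some given in a second comparison for reference. Tbl1x, Camk2d, Ywhae, Crebbp and Myh6 were not analysed here, and the values of some listed genes are not reported here. Gene names were matched through the RefSeq genes of another assembly, so no coordinates are given. Alternatives covered DESeq2 1.42.0, its size factors, gene filters, a fit over all 6 groups, the choice of A0 libraries and cultures, a replicate block and leaving out each replicate. Between the A0 phases, deviations of same-numbered cultures from their group means correlated at 0.189 to 0.435 in all 4 pairs. Only 2 of the 4 correlated best with their own number, and culture 4 reached 0.33 with another number. The numbers therefore do not settle whether the A0 phases are paired. With the replicate block 4 members were called between the A0 phases, as without it.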

Additional observations from a re-analysis of the deposited data

Results flagged for a closer look

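The phase response of Hdac4 differed between lines by a test of the difference itself in 2 comparisons. The response of A1 minus that of A0 was -0.49 as a log2 value (edgeR, adjusted p = 0.0408), with rises of 1.18 in A0 and 0.73 in A1. The response of A0 minus that of CHO-S was 0.65 (adjusted p = 0.0276), with a rise of 0.52 in CHO-S. In both, A0 cultures 3 and 4 alone gave a difference that missed the threshold. The A1 minus A0 difference missed it with all 6 groups in 1 fit too (adjusted p = 0.0845). The A0 minus CHO-S difference also missed it without CHO-S culture 2 or 3 (adjusted p = 0.115 and 0.110) or A0 culture 1 or 2 (0.0942 and 0.0919), and the A1 minus A0 difference without A0 culture 1 or 2 (0.106 and 0.157) or A1 culture 2 or 3 (0.304 and 0.222). A search for single outlying cultures among the A0 groups, over 18 sets of 4 values, found none. With 4 values a set, it had little power and was not made to find 2 cultures apart from 2 others. A1 and CHO-S were not searched, so nothing is concluded from it.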

How the results depend on the processing

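Of 105 results on single members, 53 kept their direction and their side of the threshold under every alternative tried. Of the 45 past the threshold, 31 did so and none of the 45 turned in direction. These totals and the counts against CHO-S below include Hdac9, which passed the gene filter through A0 or A1 alone. With at most 1 count in a CHO-S group, its direction against CHO-S was fixed in advance. The cause of the changes below was not tested.

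With all 6 groups in 1 fit, members called were 2 for A1 against A0 at exponential phase, 2 for the A1 phases, 2 for the CHO-S phases, 8 for A0 and 8 for A1 against CHO-S at stationary phase, and 0 for the A1 and A0 responses, where DESeq2 called 2, the first A0 libraries 0, A0 cultures 1 and 2 alone 3 and cultures 3 and 4 alone 0. Cultures 3 and 4 alone gave 7 for A1 against A0 at exponential phase and 0 for the A0 and CHO-S responses, and 3 were called in A0 against CHO-S at stationary phase with either pair. With the replicate block, 3 were called between the A1 and A0 responses and 0 between the CHO-S phases, whose same-numbered cultures deviated together at r from -0.00738 to 0.124. In A1 against CHO-S at stationary phase the block left Hdac4 uncalled (adjusted p = 0.0800). Leaving out 1 replicate gave 0 to 6 for the CHO-S phases, 2 to 7 for A1 against CHO-S at stationary phase, 0 to 2 for the A1 and A0 responses, and 0 to 3 for each of the A0 and A1 responses against CHO-S. Calls over all genes moved too in some of these fits. They went from 6196 to 2470 for the A1 phases with 6 groups, and from 2308 to 0 for the CHO-S phases without replicate 2 or 3. The member counts are therefore not read as results about the members.

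The following values changed sign. With A0 cultures 1 and 2 alone, A1 against A0 gave 0.0030 for Hdac5 at exponential phase, and 0.067 for Hdac2 and -0.097 for Hdac3 at stationary phase, the A0 phases gave 0.10 for Hdac5, and the A1 minus A0 response gave -0.093 for Hdac5. With cultures 3 and 4 alone, A1 against A0 gave -0.052 and -0.032 for Hdac6 at the 2 phases, the A0 phases gave -0.17 for Hdac9, A0 against CHO-S at stationary phase gave 0.0024 for Hdac8 (0.0025 in DESeq2), and the A1 minus A0 response gave 0.018 for Hdac6 and 0.14 for Hdac9. Hdac9 between the A1 phases was 0.014 under edgeR's own expression filter. Between the CHO-S phases Hdac2 was 0.041 in DESeq2, 0.030 with its size factors and 0.051 with that filter, and Hdac7 was 0.014 with 6 groups. Hdac7 in the A1 minus CHO-S response was 0.052 with the replicate block.

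Leaving out 1 replicate, A1 against A0 at stationary phase ran from -0.014 to 0.11 for Hdac3 and from -0.017 to 0.057 for Hdac6, and Hdac9 ran from -0.16 to 0.33 between the A0 phases, from -0.53 to 0.36 between the A1 phases and from -0.68 to 0.18 between these responses. Between the CHO-S phases Hdac2 ran from -0.46 to 0.18 and Hdac7 from -0.35 to 0.24, which passed the threshold only without library 1. Hdac8 in A0 against CHO-S at stationary phase ran from -0.082 to 0.047, Hdac3 in the A0 minus CHO-S response from -0.12 to 0.21, and in the A1 minus CHO-S response Hdac2 ran from -0.53 to 0.068, Hdac3 from -0.32 to 0.047 and Hdac7 from -0.34 to 0.12.

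Counts over all genes moved by more than 1.5 times as follows. The CHO-S phases went from 2308 to 0 without replicate 2 or 3, 350 with the replicate block, 4107 with 6 groups and 7778 without replicate 1. The A1 phases went from 6196 to 2470 with 6 groups and 3792 without A1 replicate 3. A1 against A0 at exponential phase went from 5163 to between 3160 and 3422 without an A1 replicate. Against CHO-S at stationary phase, A0 went from 7606 to 5043 with the replicate block, and A1 from 6345 to between 4051 and 10451 without 1 replicate. The responses went from 1873 to between 570 and 4588 (A1 minus A0), from 2159 to between 1095 and 3586 (A0 minus CHO-S) and from 1495 to between 393 and 4990 (A1 minus CHO-S). In DESeq2 the median over all genes of the A0 minus CHO-S response was -0.15 against -0.03 in edgeR, and of the A1 minus CHO-S response -0.11 against 0.03. Depth limits Hdac8, Hdac9 and Hdac10, and CHO-S stationary library 1, with 21 counts for Hdac7 and 38 for Hdac3.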
